A study of Homo sapiens with 12 samples.

Results

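The 44 genes described here code for proteins of the nucleolus that make ribosomes. They were chosen by name, with no measured value in the rule but with earlier results of these data known. They cover core proteins of small nucleolar ribonucleoproteins (snoRNPs), with 3 genes of the box C/D class and 4 of the box H/ACA class. The others are 6 further nucleolar proteins, 14 assembly factors of the small ribosomal subunit and 17 of the large subunit. All 44 were found among the 60754 genes of the deposited tables, and all 44 were among the 13422 protein-coding genes that had enough reads to be tested. They were measured by RNA sequencing in 12 libraries of 2 human acute myeloid leukemia (AML) cell lines, HL-60 and Molm-14, after 36 h. HL-60 cells received 112.7 pM or 500 pM of duocarmycin SA (DSA), a compound that alkylates adenines in the minor groove of DNA, or no DSA. Molm-14 cells received 11.1 pM or 100 pM of DSA, or no DSA. Up to rounding, the low dose of each line is the IC50 that the study reports for it, from a viability assay with longer exposure. Each of the 6 groups has 2 libraries. HL-60 cells grew in IMDM with 20% serum and Molm-14 cells in RPMI with 10% serum, so line, medium and serum cannot be told apart. Controls are labelled as not treated, although the study's methods mention a vehicle. HL-60 is a line of promyelocyte character with amplified MYC, and Molm-14 is a monocytic line with an MLL fusion and an internal tandem duplication of FLT3. No source says whether the 2 libraries of a group are separate cultures. The p-values here therefore speak only of the spread among these libraries.

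Ribosome production starts in the nucleolus, where RNA polymerase I transcribes the long precursor of ribosomal RNA. Box C/D snoRNPs methylate that precursor and box H/ACA snoRNPs turn selected uridines into pseudouridines, while the processome of the small subunit and the early particles of the large subunit fold and cut it. Growing and dividing cells make many ribosomes, and MYC is known as an activator of many of the genes involved.

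Every one of the 44 genes was lower in HL-60 cells at 500 pM of DSA than in HL-60 controls, and 42 were lower in Molm-14 cells at 100 pM than in Molm-14 controls. Abundance is given as CPM (counts scaled to a common library total) after scaling libraries by TMM, and a gene was said to rise or fall when its adjusted p in edgeR's quasi-likelihood test was under 0.05 (Benjamini-Hochberg over all 13422 genes, n = 2 libraries per group). At 500 pM in HL-60 cells the 44 falls compare with 37.8% of all genes tested that fell, and the median log2 fold change of the 44 genes was -0.64, beside 0.00 for all genes tested. Of the 44 genes, 24 fell by more than 1.5-fold, as 11.2% of all genes did, and 5 by more than 2-fold, as 2.05% did. In Molm-14 cells at 100 pM the 42 falls compare with 21.9% of all genes, the median of the 44 genes was -0.25, and none of them passed a fold change of 1.5, which 2.32% of all genes did. At the low dose of HL-60 cells, 112.7 pM, 37 of the 44 genes fell, beside 27.4% of all genes, with a median of -0.24. At 11.1 pM in Molm-14 cells only BOP1 fell, beside 0.238% of all genes, and the median was -0.04. In edgeR, DESeq2 and limma-voom no gene of the 44 rose in these 4 comparisons, where 35.8%, 24.2%, 22.9% and 0.969% of all genes rose in edgeR at 500 pM and 112.7 pM in HL-60 and at 100 pM and 11.1 pM in Molm-14 cells, and at an unadjusted p under 0.05 in edgeR only NOP2 did, at 100 pM in Molm-14 cells. The libraries of the 500 pM group all lay below those of the HL-60 controls for all 44 genes, which held for 42.8% of all genes. The map by library shows the dose series of both lines.

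**Figure D1:**
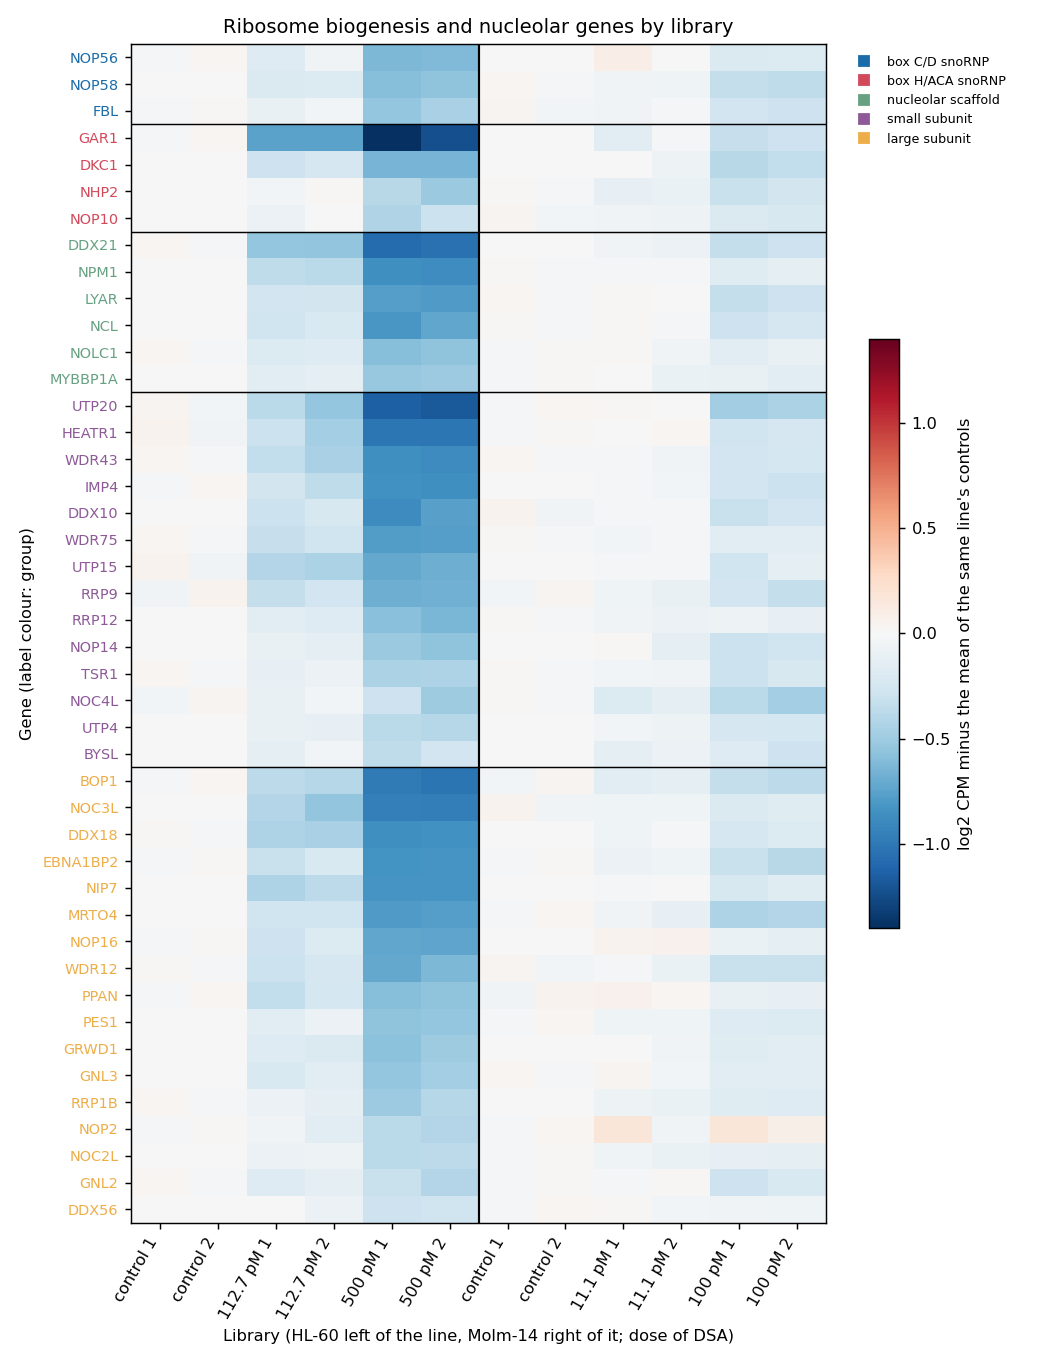
Rows are the 44 genes, grouped by role and sorted within each group by their change at 500 pM in HL-60 cells, and columns are the 12 libraries. The colour gives log2 CPM minus the mean of the 2 controls of the same line. All 44 rows are blue in both HL-60 libraries at 500 pM, and NOP2 is the only row that is red in both Molm-14 libraries at 100 pM.

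The 44 genes together took 1.43% and 1.42% of all counts in HL-60 controls, 1.23% and 1.23% at 112.7 pM and 0.942% and 0.964% at 500 pM. In Molm-14 cells they took 1.06% and 1.07% of the counts in controls, 1.05% and 1.04% at 11.1 pM and 0.897% and 0.924% at 100 pM. At the high doses the shares of both lines lay between 0.897% and 0.964%, while the controls of HL-60 cells were above those of Molm-14 cells. These are bulk samples, in which fewer cells of a type and less of an RNA per cell cannot be told apart.

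The libraries held from 21177424 to 63927449 expected counts, and the lowest count of any of the 44 genes in any library was 544 (UTP15). The line labels fitted HOXA9, HOXA10, MEIS1, FLT3 and PBX3, all lower in HL-60 controls than in Molm-14 controls, and MPO, which was higher in HL-60 controls. ELANE, AZU1 and CTSG, listed with MPO as promyelocyte genes, were lower in HL-60 than in Molm-14 controls. The summed level of MPO, ELANE, AZU1, PRTN3 and CTSG moved with the dose in HL-60 cells. It was 16915 and 17182 CPM (of all counts, without TMM) in HL-60 controls, 13503 and 13736 at 112.7 pM and 6655 and 6728 at 500 pM, and between 3245 and 3877 in the Molm-14 libraries. Listed markers of other cells were at lower levels, and their sums also moved with the dose in HL-60 cells. The 6 lymphoid markers summed to 2.84 and 2.99 CPM in HL-60 controls, 5.18 and 4.89 at 112.7 pM and 9.83 and 10.3 at 500 pM, where the 3 with enough reads to be tested all rose, and MS4A1 was at 0 in every library. The 6 erythroid and platelet markers summed to 1.51 and 1.22 CPM in HL-60 controls, 6.52 and 5.18 at 112.7 pM and 8.503 and 8.53 at 500 pM, nearly all of it ITGA2B, with HBB and HBA1 at 0 in every library. Neither sum passed 1.19 CPM in a Molm-14 library. The 5 epithelial markers summed to 0.988 and 0.610 CPM in HL-60 controls, 1.43 and 1.3 at 112.7 pM and 3.78 and 2.75 at 500 pM, and to between 32.6 and 36.7 CPM in Molm-14 libraries, most of it KRT18, with KRT19 at 0 in every library. Mitochondrially encoded RNA, none of which is in the fit, took 2.22% and 2.47% of the counts in HL-60 controls, 3.68% and 3.76% at 112.7 pM and 5.46% and 4.64% at 500 pM. It took 1.47% and 1.68% in Molm-14 controls, 2.45% and 2.35% at 11.1 pM and 4.09% and 2.72% at 100 pM. The part of these in the changes of the 44 genes was not tested. Total counts alone were also used for scaling, with the total taken over the tested genes and thus without mitochondrially encoded RNA. At 500 pM in HL-60 cells this gave medians of -0.45 for the 44 genes and 0.18 for all genes, and 44 falls.

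The promoters of the members were read because the genes moved together. RefSeq sequences (GRCh38.p14) of the 250 bases before the start were at hand for 38 of the 44 genes, and each was searched on both strands. The E-box CACGTG, a site that MYC with MAX can bind, occurs in 5 of the 38 windows (13.2%), beside 9.0% of the 10732 windows of tested genes and 6.49% of all 27305 windows. The 3 members with an E-box within 16 bases of the RefSeq start are UTP20, UTP4 and NOP10, printed here with every E-box in capitals. NOP10 holds another E-box 170 bases before its start. For some genes the outer bounds in GENCODE 44 reach beyond the RefSeq start. There UTP4 begins at chr16:69131291, so its window lies inside the gene. NOP10 reaches to chr15:34343180 on the minus strand, so its nearer E-box lies inside the gene too. GAR1, which fell most at 500 pM in HL-60 cells, is printed for contrast and holds no E-box in this window. The windows are chr12:101279855-101280104 (plus strand) for UTP20, chr16:69132399-69132648 (plus strand) for UTP4, chr15:34343137-34343386 (minus strand) for NOP10 and chr4:109815260-109815509 (plus strand) for GAR1, each given from 5′ to 3′ towards the start of the gene.
UTP20: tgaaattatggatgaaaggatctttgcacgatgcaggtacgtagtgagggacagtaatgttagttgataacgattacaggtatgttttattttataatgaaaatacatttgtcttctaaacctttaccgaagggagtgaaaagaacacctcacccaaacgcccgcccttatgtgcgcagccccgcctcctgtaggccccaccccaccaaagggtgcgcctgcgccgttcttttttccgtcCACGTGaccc
UTP4: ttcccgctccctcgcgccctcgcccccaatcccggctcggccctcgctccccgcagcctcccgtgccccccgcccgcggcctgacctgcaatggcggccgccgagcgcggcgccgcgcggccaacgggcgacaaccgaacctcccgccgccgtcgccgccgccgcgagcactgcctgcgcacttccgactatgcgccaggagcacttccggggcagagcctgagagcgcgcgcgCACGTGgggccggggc
NOP10: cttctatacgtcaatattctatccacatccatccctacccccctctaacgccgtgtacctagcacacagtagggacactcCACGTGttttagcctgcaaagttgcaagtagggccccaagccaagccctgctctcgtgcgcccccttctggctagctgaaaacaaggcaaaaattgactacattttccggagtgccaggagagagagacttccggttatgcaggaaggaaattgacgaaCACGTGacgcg
GAR1: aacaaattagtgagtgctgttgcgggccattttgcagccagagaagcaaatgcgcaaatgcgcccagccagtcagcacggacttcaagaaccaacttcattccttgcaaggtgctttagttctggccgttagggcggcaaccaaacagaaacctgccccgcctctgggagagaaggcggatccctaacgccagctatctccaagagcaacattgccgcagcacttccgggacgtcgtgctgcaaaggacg

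UTP20 had one of the largest falls of the 44 genes at 500 pM in HL-60 cells and NOP10 and UTP4 were among the 6 smallest, so these windows belong to genes at both ends of the range. EBNA1BP2 and IMP4, which fell by 0.83 and 0.85 on the log2 scale, hold an E-box farther away, 237 and 203 bases before the start. EBNA1BP2, on the minus strand, reaches to chr1:43270936 in GENCODE 44, so its window lies inside the gene. The median log2 fold change at 500 pM was -0.83 for the 5 genes with an E-box and -0.65 for the members without one, and at 100 pM in Molm-14 cells -0.28 and -0.25. The ETS-type motif CCGGAAG, a match of which cannot overlap one of the E-box, occurs in 13 of the 38 windows (34.2%), beside 15.7% of the windows of tested genes. The median change at 500 pM was -0.53 for the 13 genes with it and -0.67 for the 25 without it. The GC box GGGCGG is in 71.1% of the members' windows and in 65.7% of those of tested genes, and TATAAA is in 1 window of the 38 (2.63%), beside 5.71%. These are matches of letters and not sites shown to be bound.

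All 3 core proteins of the box C/D snoRNP fell at the high dose in both lines. NOP56, a scaffold protein of the particle at chr20:2652593-2658393 (hg38), had 731 and 758 CPM in HL-60 controls, 658 and 719 CPM at 112.7 pM and 481 and 486 CPM at 500 pM. The 2 libraries at 500 pM lay below all 4 others of the line, and the log2 fold change was -0.62 ± 0.04 (SE; edgeR adjusted p = 3.64e-11). In Molm-14 cells NOP56 had 485 and 478 CPM in controls, 513 and 481 CPM at 11.1 pM and 419 and 421 CPM at 100 pM, with a log2 fold change of -0.20 ± 0.04 at 100 pM. NOP58, its partner in the particle, had 183 and 186 CPM in HL-60 controls, 161 and 162 CPM at 112.7 pM and 122 and 125 CPM at 500 pM. NOP58 also had 199 and 193 CPM in Molm-14 controls, 189.8 and 188 CPM at 11.1 pM and 155 and 153 CPM at 100 pM. Both high doses lay below every other library of their line for NOP58, and the log2 fold changes were -0.58 ± 0.03 at 500 pM in HL-60 cells and -0.34 ± 0.03 at 100 pM in Molm-14 cells. FBL, the methyltransferase of the particle, had 539 and 551 CPM in HL-60 controls, 506 and 530.4 CPM at 112.7 pM and 374 and 399 CPM at 500 pM. At 112.7 pM the FBL libraries lay below both controls but the fall did not pass the test (-0.07, adjusted p = 0.103), whereas at 500 pM it did (-0.49 ± 0.04). FBL had 501 and 474 CPM in Molm-14 controls, 471 and 478 CPM at 11.1 pM and 404 and 398 CPM at 100 pM, and it fell in Molm-14 cells at 100 pM (-0.28 ± 0.04).

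The 4 box H/ACA genes all fell at the high doses, with log2 fold changes from -1.30 (GAR1) to -0.36 (NOP10) at 500 pM in HL-60 cells and from -0.36 (DKC1) to -0.22 (NOP10) at 100 pM in Molm-14 cells. GAR1, at chr4:109815510-109824740, joins the particle late in its assembly, and it had 108 and 112 CPM in HL-60 controls, 65.3 and 65.4 CPM at 112.7 pM and 41.6 and 46.9 CPM at 500 pM. No library of one dose overlapped those of another, and GAR1 fell to 40.5% of the control level at 500 pM, the largest fall of the 44 genes, with a log2 fold change of -1.30 ± 0.05 and a 95% interval of -1.41 to -1.20. It had already fallen at 112.7 pM (-0.75 ± 0.05), and it was the only gene of the 44 past a fold change of 1.5 at that dose, as 2.53% of all genes were. In Molm-14 cells GAR1 had 48.1 and 48.4 CPM in Molm-14 controls, 43.5 and 47.9 CPM at 11.1 pM and 38.6 and 39.5 CPM at 100 pM, a log2 fold change of -0.31 ± 0.06 at 100 pM. DKC1, the pseudouridine synthase itself, had 341 and 339 CPM in HL-60 controls, 278 and 289 CPM at 112.7 pM and 217 and 217 CPM at 500 pM. Its 3 doses did not overlap either, and its log2 fold changes were -0.26 at 112.7 pM and -0.65 at 500 pM. In Molm-14 cells DKC1 had 258 and 257 CPM in controls, 258 and 246 CPM at 11.1 pM and 197 and 204 CPM at 100 pM, and the log2 fold change at 100 pM, -0.36 ± 0.03, was among the 4 lowest of the 44 genes there. NHP2, an RNA-binding protein of the particle, had 252 and 251 CPM in HL-60 controls, 245 and 254 CPM at 112.7 pM and 192 and 176 CPM at 500 pM. Its libraries at 112.7 pM lay on both sides of the controls (log2 fold change -0.01, 95% interval -0.09 to 0.07), and it fell at 500 pM (-0.45 ± 0.04). NOP10, the smallest protein of the particle, had 118 and 117 CPM in HL-60 controls, 111 and 118 CPM at 112.7 pM and 87.9 and 95.3 CPM at 500 pM. NOP10 likewise overlapped the controls at 112.7 pM (-0.03, adjusted p = 0.56) and fell at 500 pM (-0.36 ± 0.04). In Molm-14 cells NHP2 had 138 and 135 CPM in controls, 127 and 129 CPM at 11.1 pM and 111 and 114 CPM at 100 pM. NOP10 had 86.3 and 82.2 CPM in Molm-14 controls, 81.5 and 80.1 CPM at 11.1 pM and 72.9 and 71.9 CPM at 100 pM. Both genes fell at 100 pM in Molm-14 cells, with log2 fold changes of -0.29 for NHP2 and -0.22 for NOP10.

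The ratio of GAR1 to DKC1 in TPM, a unit that corrects for length, was 0.758 and 0.863 in HL-60 controls, 0.585 and 0.564 at 112.7 pM and 0.449 and 0.549 at 500 pM. In Molm-14 libraries it lay between 0.409 and 0.507 at all doses. At 500 pM 1 HL-60 library was within the Molm-14 range and the other above it. NHP2 over DKC1 was 2.47 and 2.64 in HL-60 controls, 2.96 and 2.93 at 112.7 pM and 2.7 and 2.64 at 500 pM. These ratios were not tested.

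**Figure D2:**
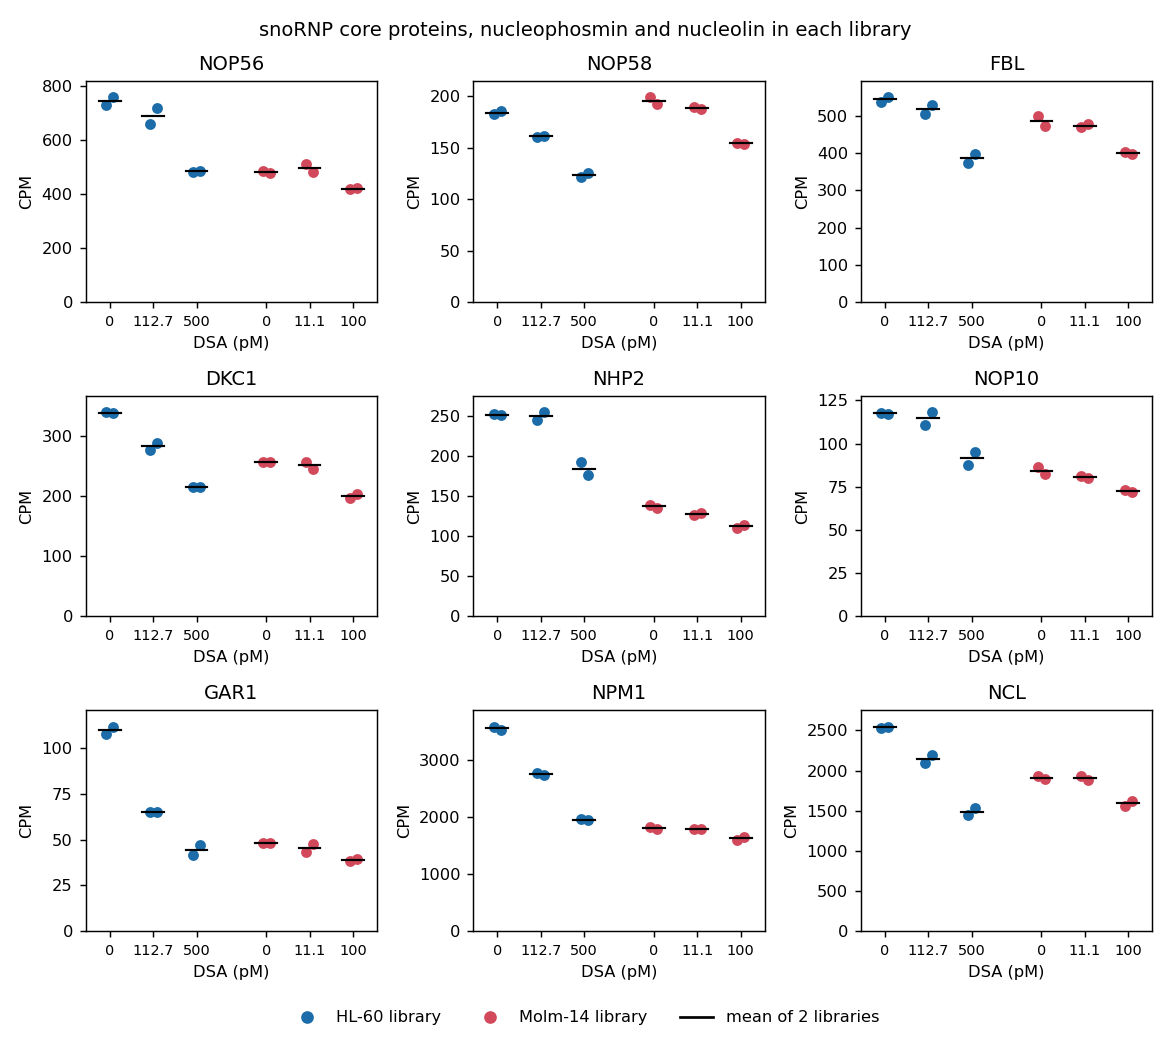
Each panel gives the CPM of a snoRNP core protein, NPM1 or NCL in every library against the dose of DSA in pM, with HL-60 libraries in blue, Molm-14 libraries in red and a bar at the mean of 2 libraries. GAR1 in HL-60 cells shows the steepest fall of the 9 genes, to 41.6 and 46.9 CPM at 500 pM, while NHP2 and NOP10 overlap their controls at 112.7 pM.

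The 6 further nucleolar proteins all fell at 500 pM in HL-60 cells and at 100 pM in Molm-14 cells. NPM1 (nucleophosmin), a chaperone of the outer nucleolus at chr5:171387116-171411810, had the highest TPM of the 44 genes in both controls. It had 3590.0 and 3539 CPM in HL-60 controls, 2779 and 2738 CPM at 112.7 pM and 1969 and 1945 CPM at 500 pM. The doses did not overlap, and NPM1 fell to 54.9% of the control level at 500 pM (-0.86 ± 0.03, adjusted p = 8.06e-16). In Molm-14 cells NPM1 had 1825 and 1790.0 CPM in Molm-14 controls, 1793 and 1790.0 CPM at 11.1 pM and 1602 and 1659.7 CPM at 100 pM, a log2 fold change of -0.15 ± 0.02 at 100 pM. Reads of 49 NPM1 pseudogenes made up 7.0% of the reads of NPM1 and these copies together, and NPM1 with their counts added fell by 0.86 on the log2 scale at 500 pM. NCL (nucleolin), which binds ribosomal RNA and its genes, had 2529.9 and 2548 CPM in HL-60 controls, 2101 and 2194 CPM at 112.7 pM and 1444 and 1532 CPM at 500 pM. It fell at both doses without overlap (-0.24 and -0.77). In Molm-14 cells NCL had 1926 and 1895 CPM in controls, 1931 and 1886 CPM at 11.1 pM and 1562 and 1622 CPM at 100 pM, and it fell at 100 pM (-0.26 ± 0.03).

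DDX21, an RNA helicase that works with RNA polymerase I and snoRNAs, had 851 and 819 CPM in HL-60 controls, 574 and 569 CPM at 112.7 pM and 395 and 406 CPM at 500 pM. It fell to 48.0% of the control level at 500 pM (-1.06 ± 0.03), with no overlap between doses. In Molm-14 cells DDX21 had 1122 and 1119 CPM in controls, 1082 and 1058 CPM at 11.1 pM and 892 and 916 CPM at 100 pM, a fall of 0.31 on the log2 scale at 100 pM. LYAR, a nucleolar zinc finger protein, had 136 and 138 CPM in HL-60 controls, 114 and 115 CPM at 112.7 pM and 80.5 and 79.3 CPM at 500 pM. Its log2 fold changes were -0.78 at 500 pM in HL-60 cells and -0.31 at 100 pM in Molm-14 cells, where it had 59.5 and 57.7 CPM in Molm-14 controls, 59.3 and 59.0 CPM at 11.1 pM and 46.4 and 47.9 CPM at 100 pM. Every HL-60 library stood above every Molm-14 library for LYAR. NOLC1, a chaperone of snoRNPs, and MYBBP1A, a nucleolar protein that binds MYB, fell less at 500 pM (-0.58 and -0.52) and at 100 pM (-0.13 and -0.13). MYBBP1A had 178 and 176 CPM in HL-60 controls, 160.0 and 162 CPM at 112.7 pM and 122 and 124 CPM at 500 pM, against 244 and 249.9 CPM in Molm-14 controls, 247 and 232 CPM at 11.1 pM and 230.2 and 221 CPM at 100 pM.

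All 14 factors of the small subunit fell at 500 pM in HL-60 cells, with a median log2 fold change of -0.69, and all 14 fell at 100 pM in Molm-14 cells, with a median of -0.26. UTP20, a large scaffold protein of the processome at chr12:101280105-101386618, had 154 and 147 CPM in HL-60 controls, 116 and 104 CPM at 112.7 pM and 68.3 and 66.9 CPM at 500 pM. In Molm-14 cells it had 122 and 126 CPM in controls, 125 and 124 CPM at 11.1 pM and 88.3 and 91.0 CPM at 100 pM. UTP20 had the lowest log2 fold change of the 44 genes at 100 pM in Molm-14 cells (-0.47 ± 0.05) and the second lowest at 500 pM in HL-60 cells (-1.16 ± 0.05), while its Molm-14 libraries at 11.1 pM were within the range of the controls. HEATR1, which links the processome to transcription of ribosomal RNA, had 236 and 221 CPM in HL-60 controls, 185 and 164 CPM at 112.7 pM and 113 and 114 CPM at 500 pM. It fell to 49.7% of the control level at 500 pM (-1.01 ± 0.05), and its log2 fold change at 100 pM in Molm-14 cells was -0.26, with 222 and 226 CPM in Molm-14 controls, 224 and 228 CPM at 11.1 pM and 184 and 189.8 CPM at 100 pM. WDR43, WDR75, UTP4 and UTP15, members of the same subcomplex as HEATR1, spread from -0.87 (WDR43) to -0.39 (UTP4) at 500 pM.

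IMP4 and RRP9, proteins bound to the U3 snoRNA, fell by 0.85 and 0.68 on the log2 scale at 500 pM, and the helicase DDX10 fell by 0.82. NOC4L, a partner of NOP14, had 66.7 and 70.4 CPM in HL-60 controls, 63.8 and 66.8 CPM at 112.7 pM and 56.0 and 48.4 CPM at 500 pM, a log2 fold change of -0.41 ± 0.06 at 500 pM. In Molm-14 cells it had 64.5 and 62.7 CPM in Molm-14 controls, 55.9 and 57.8 CPM at 11.1 pM and 48.9 and 45.7 CPM at 100 pM, and its -0.43 ± 0.06 at 100 pM was the second lowest of the 44 genes there. NOP14 itself had log2 fold changes of -0.54 at 500 pM and -0.29 at 100 pM. Among factors of the later small-subunit particles, BYSL fell least. It had 63.4 and 63.3 CPM in HL-60 controls, 58.2 and 61.8 CPM at 112.7 pM and 49.6 and 52.7 CPM at 500 pM, a log2 fold change of -0.30 ± 0.05. In Molm-14 cells BYSL had 68.5 and 69.4 CPM in Molm-14 controls, 62.8 and 64.9 CPM at 11.1 pM and 60.7 and 56.5 CPM at 100 pM. RRP12, which takes part in export of the particle, had 254 and 248 CPM in Molm-14 controls, 242 and 236 CPM at 11.1 pM and 239 and 231 CPM at 100 pM, and its fall of 0.09 on the log2 scale at 100 pM was the smallest that passed in Molm-14 cells (adjusted p = 0.0337). In HL-60 cells RRP12 had 160.1 and 161 CPM in HL-60 controls, 144 and 141 CPM at 112.7 pM and 107 and 103 CPM at 500 pM, a log2 fold change of -0.61. TSR1, a factor of late small-subunit particles, had 118 and 115 CPM in HL-60 controls, 108 and 109.7 CPM at 112.7 pM and 86.0 and 86.3 CPM at 500 pM, and it fell by 0.43 on the log2 scale at 500 pM. In Molm-14 cells TSR1 had 188 and 183 CPM in controls, 181 and 179 CPM at 11.1 pM and 150.3 and 159 CPM at 100 pM.

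All 17 factors of the large subunit fell at 500 pM in HL-60 cells (median -0.58) and 15 of them fell at 100 pM in Molm-14 cells (median -0.19). BOP1, PES1 and WDR12 form one complex that acts on the large-subunit precursor. BOP1 had 124 and 129 CPM in HL-60 controls, 98.0 and 96.3 CPM at 112.7 pM and 64.0 and 62.5 CPM at 500 pM. It fell to 49.8% of the control level at 500 pM (-1.01 ± 0.04), beside -0.55 ± 0.03 for PES1 and -0.67 ± 0.04 for WDR12, and the difference between the genes was not tested. In Molm-14 cells BOP1 had 285 and 299 CPM in controls, 261 and 266 CPM at 11.1 pM and 232 and 226 CPM at 100 pM, and the libraries of all 3 groups were apart. Its fall at 11.1 pM (-0.15 ± 0.04, adjusted p = 0.0484) no longer passed when any one of the 6 Molm-14 libraries was left out, or when either HL-60 library at 112.7 pM was, leaving 0 of the 44 genes. NOC3L, a factor of early pre-60S particles, had 67.7 and 67.6 CPM in HL-60 controls, 50.7 and 46.1 CPM at 112.7 pM and 34.8 and 34.5 CPM at 500 pM. It fell by 0.49 on the log2 scale at 112.7 pM and by 0.96 at 500 pM, and in Molm-14 cells it had 84.2 and 79.0 CPM in Molm-14 controls, 78.1 and 78.1 CPM at 11.1 pM and 70.7 and 72.3 CPM at 100 pM. The helicase DDX18 and the factors EBNA1BP2 and NIP7 fell by 0.85, 0.83 and 0.82 on the log2 scale at 500 pM.

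MRTO4, a placeholder for a stalk protein of the large subunit, had 151 and 157 CPM in Molm-14 controls, 149 and 142 CPM at 11.1 pM and 113 and 116 CPM at 100 pM. Its log2 fold change at 100 pM, -0.42 ± 0.04, was the third lowest of the 44 genes in Molm-14 cells, and in HL-60 cells it had 200.3 and 197 CPM in HL-60 controls, 163 and 163 CPM at 112.7 pM and 114 and 116 CPM at 500 pM. EBNA1BP2 had 248 and 252 CPM in HL-60 controls, 202 and 216 CPM at 112.7 pM and 139.7 and 141 CPM at 500 pM, against 113 and 115 CPM in Molm-14 controls, 108 and 109 CPM at 11.1 pM and 91.6 and 87.1 CPM at 100 pM. Every HL-60 library stood above every Molm-14 library for EBNA1BP2. NOC2L, a partner of NOC3L, had 473 and 476 CPM in HL-60 controls, 446 and 450.2 CPM at 112.7 pM and 366 and 369 CPM at 500 pM, and it fell by 0.37 on the log2 scale at 500 pM. In Molm-14 cells NOC2L had 208 and 213 CPM in controls, 201 and 197 CPM at 11.1 pM and 194 and 191 CPM at 100 pM, all below the HL-60 libraries at 500 pM. The GTPase GNL2 had 142 and 138 CPM in HL-60 controls, 124 and 128 CPM at 112.7 pM and 113 and 106 CPM at 500 pM, and its log2 fold change at 500 pM was -0.36, beside -0.50 for GNL3 (nucleostemin). GNL2 had 94.5 and 96.0 CPM in Molm-14 controls, 94.3 and 96.6 CPM at 11.1 pM and 78.2 and 82.1 CPM at 100 pM, with the 11.1 pM libraries around the controls and the 100 pM libraries below them. DDX56, a helicase, had the smallest fall at 500 pM. It had 132 and 133 CPM in HL-60 controls, 133 and 126 CPM at 112.7 pM and 108 and 109.6 CPM at 500 pM (-0.28 ± 0.04).

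Both genes that did not fall at 100 pM in Molm-14 cells belong to the large subunit. NOP2, which methylates a cytosine of 28S ribosomal RNA, had 122 and 126 CPM in Molm-14 controls, 139.6 and 119.6 CPM at 11.1 pM and 139.7 and 131 CPM at 100 pM. Both libraries at 100 pM lay above both controls, but 1 library at 11.1 pM stood as high, and the difference was 0.13 ± 0.06 (95% interval 0.02 to 0.23, adjusted p = 0.0762). When 1 of the libraries at 11.1 pM was left out the call changed to a rise of the same size (0.12 and 0.13, adjusted p = 0.023 for each). It also passed with only the groups compared (0.12), other filters on low counts, thinned libraries or total counts alone. A coding gene without a symbol, ENSG00000285238, overlaps NOP2 on the same strand, and its expected counts were 416 and 314 in Molm-14 controls, 0 and 523 at 11.1 pM and 0 and 290 at 100 pM. The libraries with 0 are the ones in which NOP2 was highest in this line. With the counts of both genes added, an alternative chosen after seeing the data, NOP2 had 135 and 136 CPM in Molm-14 controls, 139.7 and 134 CPM at 11.1 pM and 139.7 and 139.9 CPM at 100 pM. The difference at 100 pM was then 0.05 (adjusted p = 0.375). In HL-60 cells NOP2 had 173 and 176 CPM in controls, 169 and 158 CPM at 112.7 pM and 135 and 132 CPM at 500 pM and fell at 500 pM (-0.39 ± 0.06). DDX56 had 99.2 and 103 CPM in Molm-14 controls, 102 and 98.6 CPM at 11.1 pM and 97.3 and 97.1 CPM at 100 pM, a log2 fold change of -0.06 with a 95% interval of -0.13 to 0.02 at 100 pM. NOP16 and PPAN, both pre-60S factors, fell there by 0.11 each on the log2 scale. NOP16 had 99.2 and 98.5 CPM in Molm-14 controls, 102 and 103 CPM at 11.1 pM and 92.5 and 90.2 CPM at 100 pM. PPAN had 104 and 111 CPM in Molm-14 controls, 112 and 109 CPM at 11.1 pM and 99.8 and 99.0 CPM at 100 pM. The counts of PPAN share reads with the readthrough transcript PPAN-P2RY11, which made up 8.91% of the reads of both, and with these added PPAN still fell by 0.12 in Molm-14 cells at 100 pM and by 0.57 in HL-60 cells at 500 pM. With P2RY11, the gene that overlaps its end, added as well, the change was 0.03 (adjusted p = 0.537) at 100 pM and -0.36 at 500 pM.

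**Figure D3:**
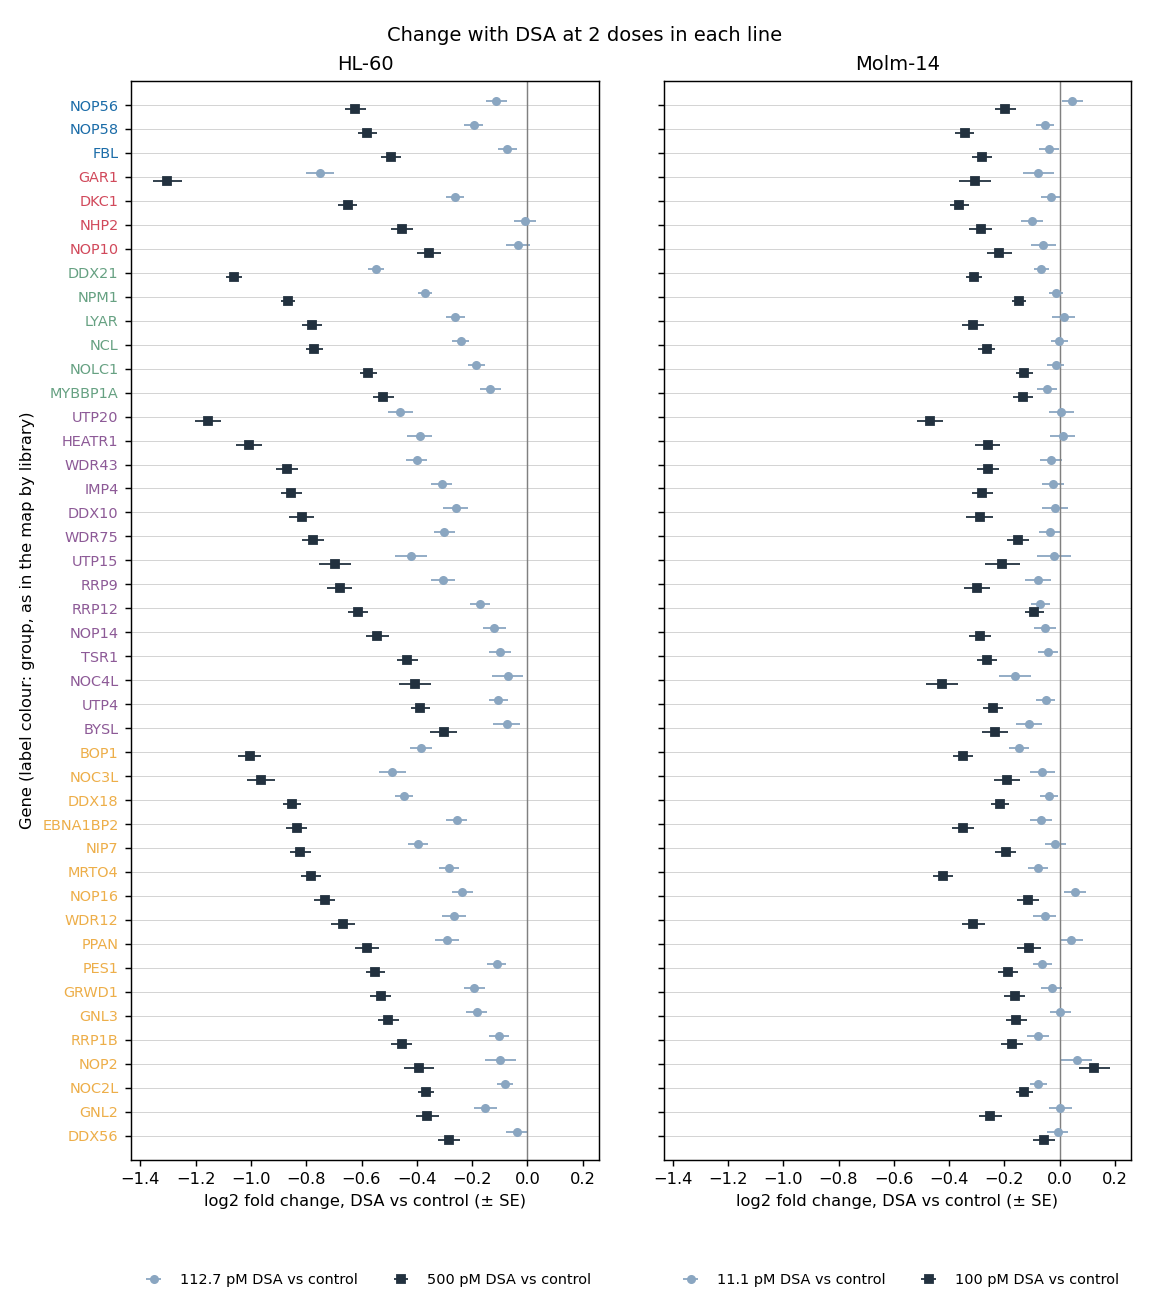
Points give the log2 fold change of each of the 44 genes against the controls of the same line, with bars for the SE, at the low dose (circles) and the high dose (squares) in HL-60 cells (left) and Molm-14 cells (right). The squares of HL-60 cells run from -1.30 (GAR1) to -0.28 (DDX56), and those of Molm-14 cells from -0.47 (UTP20) to 0.13 (NOP2).

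In HL-60 cells 40 of the 44 genes were lower in every library at 500 pM than in every library at 112.7 pM, and lower there than in every control, as were 23.3% of all genes tested. The other 4 were DDX56, NHP2, NOC4L and NOP10. In Molm-14 cells 23 of the 44 genes had that order, beside 10.8% of all genes. Between the doses, all 44 genes were lower at 500 pM than at 112.7 pM in HL-60 cells, beside 26.8% of all genes, and 38 were lower at 100 pM than at 11.1 pM in Molm-14 cells, beside 18.5%. The change at 112.7 pM was a median of 33.5% of the change at 500 pM on the log2 scale, from 2.0% (NHP2) to 60.8% (UTP15). UTP15 had 43.2 and 40.4 CPM in HL-60 controls, 31.5 and 30.8 CPM at 112.7 pM and 25.5 and 26.0 CPM at 500 pM. The 7 genes that did not pass at 112.7 pM were FBL, NOP10, NHP2, DDX56, NOP2, BYSL and NOC4L, and all 44 log2 fold changes were below 0 there, or 41 with RLE factors and 39 when libraries were scaled by total counts alone.

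Before any DSA the lines already differed. In HL-60 controls 31 of the 44 genes were higher than in Molm-14 controls, beside 43.9% of all genes, and 8 were lower, beside 40.1%. The median log2 difference (HL-60 over Molm-14) was 0.40 for the 44 genes and 0.06 for all genes. LYAR was the highest (1.22 ± 0.04), followed by GAR1 (1.19 ± 0.05), NOC2L (1.17 ± 0.03) and EBNA1BP2 (1.14 ± 0.04). BOP1 was the lowest (-1.20 ± 0.04), followed by TSR1 (-0.67), RRP12 (-0.65) and MYBBP1A (-0.48). The ratio of BOP1 to PES1 in TPM was 0.460 and 0.474 in HL-60 controls, against 1.47 and 1.5 in Molm-14 controls. All 4 box H/ACA genes were higher in HL-60 controls. By TPM, NPM1 stood at 7655 ± 168 in HL-60 controls and 3895 ± 7.13 in Molm-14 controls (mean ± SD, n = 2 each), and UTP15 and UTP20 had the lowest levels in both, from 12.6 to 21.3 TPM.

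The doses of 112.7 pM in HL-60 cells and 100 pM in Molm-14 cells are close to each other, so the changes against each line's own control were compared there. Relative to the IC50 of each line these doses differ. The difference passed the test for 18 of the 44 genes. The fall was larger in HL-60 cells for 9 of them, beside 21.0% of all genes with a difference in that direction, and for the other 9 the log2 fold change was higher in HL-60 cells, beside 16.7% of all genes. Both counts are close to those shares, so they hardly set the 44 genes apart from all genes tested. The median difference of the 44 genes was 0.01. With RLE factors the split was 6 genes with the larger fall in HL-60 cells and 14 of the other direction, with DESeq2 5 and 13, and with total counts alone 6 and 11, so the balance of directions depends on the scaling. GAR1 differed most in the first direction, with log2 fold changes of -0.75 in HL-60 cells and -0.31 in Molm-14 cells (difference -0.44 ± 0.08, adjusted p = 1.56e-04), followed by NOC3L (-0.30), DDX21 (-0.24) and DDX18 (-0.23). NOC4L differed most in the second, with -0.07 in HL-60 cells and -0.43 in Molm-14 cells (difference 0.36 ± 0.08), followed by NHP2 (0.28) and FBL (0.21). The 9 genes of the second direction became 4 when either HL-60 control, the HL-60 library 2 at 112.7 pM, the Molm-14 control 1 or the Molm-14 library 2 at 100 pM was left out, and 5 without the Molm-14 library 1 at 100 pM. At the high doses, which differ, the log2 fold change was lower in HL-60 cells at 500 pM than in Molm-14 cells at 100 pM for 43 of the 44 genes, the exception being NOC4L.

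**Figure D4:**
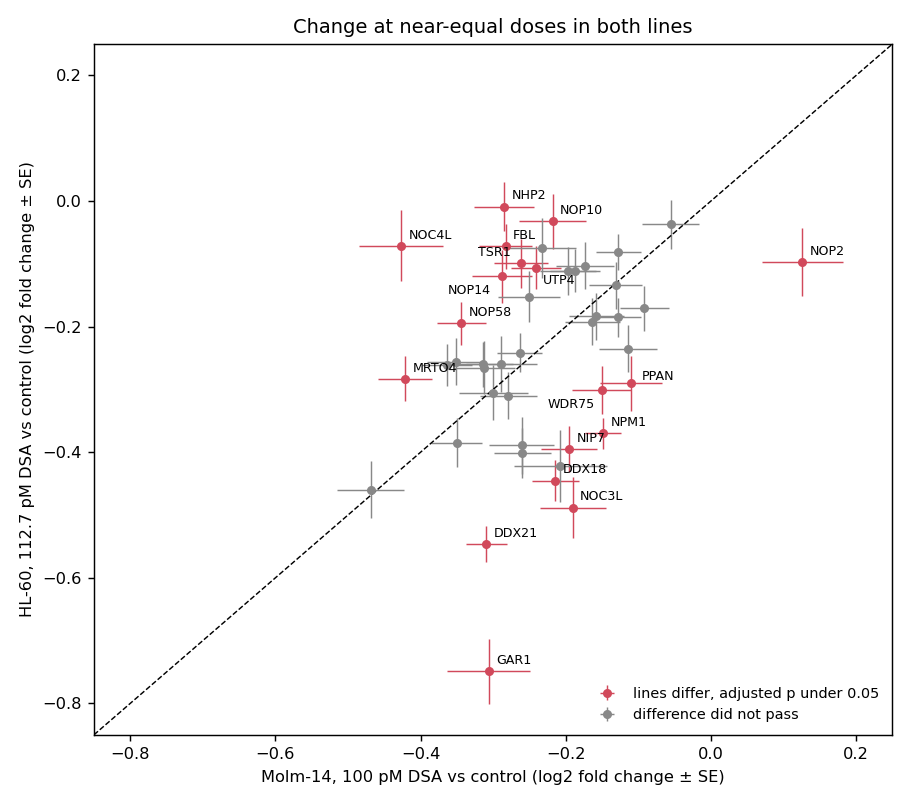
Each point is 1 of the 44 genes, with its log2 fold change at 100 pM in Molm-14 cells across and at 112.7 pM in HL-60 cells up, bars for the SE and a dashed line of equal change. Red points are the 18 genes whose difference between lines passed the test, with GAR1 (-0.75 in HL-60, -0.31 in Molm-14 cells) farthest below the line and NOC4L (-0.07 in HL-60, -0.43 in Molm-14 cells) farthest above it.

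Other genes of ribosome production were counted for comparison, beside the 37.8% of all genes that fell at 500 pM in HL-60 cells and the 21.9% at 100 pM in Molm-14 cells. Of 44 other small-subunit factors, 43 fell and none rose at 500 pM in HL-60 cells (median -0.58), and 32 fell at 100 pM in Molm-14 cells (median -0.18). Of 44 other large-subunit factors, 39 fell at 500 pM (median -0.40) and 26 fell, with 1 rise, at 100 pM (median -0.13). Of the 14 genes of the RNA exosome, which trims ribosomal RNA precursors, 12 fell at 500 pM and 13 at 100 pM. Of 12 factors that assemble snoRNPs, 11 fell at 500 pM and 9 at 100 pM, among them NAF1, which holds the place of GAR1 in the immature H/ACA particle (-0.91 at 500 pM). Of 20 genes of RNA polymerase I and its factors, 17 fell and 1 rose at 500 pM, with POLR1B at -0.86, and 11 fell and 1 rose at 100 pM. The 78 genes of cytosolic ribosomal proteins, the building blocks of the ribosome itself, had medians closer to 0. At 500 pM in HL-60 cells 56 of them fell and 4 rose (median -0.16), beside 37.8% and 35.8% of all genes. At 100 pM in Molm-14 cells 2 fell and 14 rose (median 0.04), beside 21.9% and 22.9% of all genes, and at 112.7 pM in HL-60 cells 7 fell and 14 rose (median 0.01), beside 27.4% and 24.2%, so the 14 rises are a smaller share of the 78 genes than of all genes at both doses. The 78 genes were also mostly lower in HL-60 than in Molm-14 controls, with 60 lower and 10 higher, beside 40.1% and 43.9% of all genes. Of the 44 genes of ribosome biogenesis, 31 were higher there. Ribosomal protein genes have many processed pseudogenes, so their single values are uncertain. Of 16 snoRNA host transcripts without a long reading frame, 10 fell and 1 rose at 500 pM in HL-60 cells (median -0.24). At 100 pM in Molm-14 cells 1 of them fell and 3 rose (median 0.01). These came from the fit of all gene types, so the shares of coding genes above are only a guide for them.

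**Figure D5:**
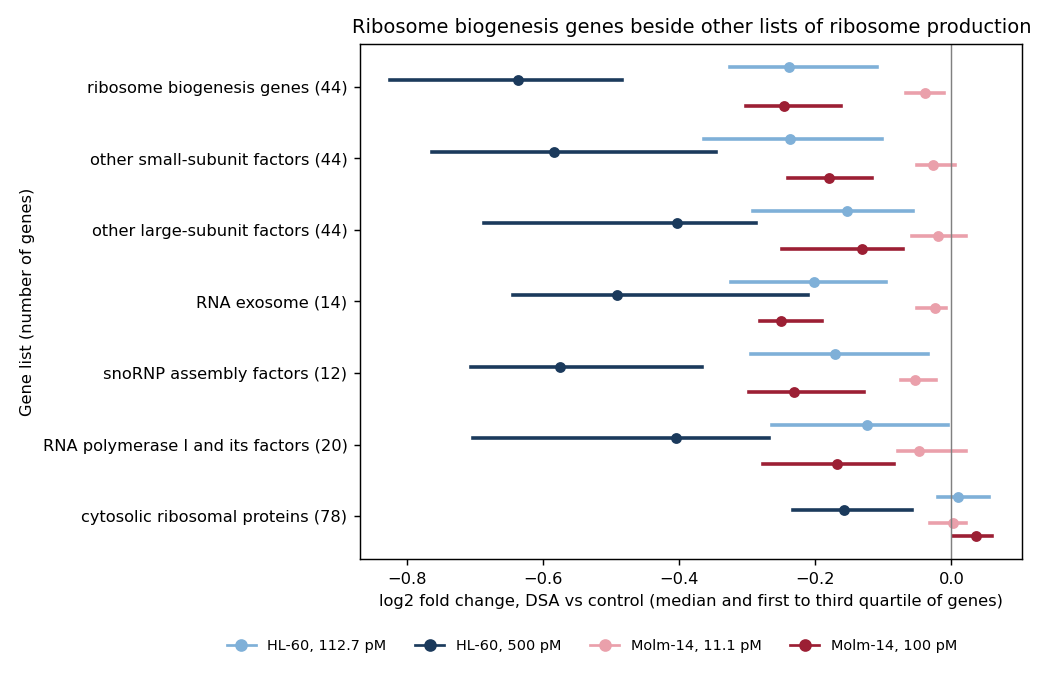
Points give the median log2 fold change against the control of each gene list, and lines span the middle quartiles of its genes, in 4 comparisons of DSA with the control of the same line. The 44 ribosome biogenesis genes have medians of -0.64 at 500 pM and -0.24 at 112.7 pM in HL-60 cells and of -0.25 at 100 pM in Molm-14 cells, while ribosomal proteins are at -0.16, 0.01 and 0.04.

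MYC had 2231 and 2056 CPM in HL-60 controls, 1827 and 1865 CPM at 112.7 pM and 961 and 947 CPM at 500 pM, and it had 645 and 622 CPM in Molm-14 controls, 623 and 613 CPM at 11.1 pM and 433 and 444 CPM at 100 pM. It fell at 500 pM (log2 fold change -1.17 ± 0.03, adjusted p = 8.17e-16) and 112.7 pM (-0.22 ± 0.03) in HL-60 cells and at 100 pM in Molm-14 cells (-0.53 ± 0.03). At 11.1 pM the change did not pass (-0.04, adjusted p = 0.745). MYC was higher in HL-60 than in Molm-14 controls (1.76 ± 0.03). Whether the change of MYC has a part in that of the 44 genes was not tested. Of the 9 listed genes of the MYC and MAX network, MYC included, 5 rose and 4 fell at 500 pM, beside 35.8% and 37.8% of all genes, 1 rose and 4 fell at 112.7 pM, beside 24.2% and 27.4%, and 3 rose and 1 fell at 100 pM, beside 22.9% and 21.9%. Among the genes that compete with MYC for its partner MAX, MXD4 rose at 500 pM, 112.7 pM and 100 pM (0.52, 0.30 and 1.06). MXD1 rose at 500 pM and 100 pM (0.53 and 0.68) and stood at -0.03 at 112.7 pM. MXD3 and MNT rose at 500 pM (0.76 and 0.29). Their changes did not pass at 112.7 pM (0.11 and 0.07) or at 100 pM (-0.12 and 0.04). MXI1 fell at 500 pM and 112.7 pM (-0.16 and -0.19), as did MAX itself (-0.21 and -0.16).

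Of the 44 genes, 8 carry 27 genes of snoRNAs or related small RNAs within their bounds (GENCODE 44), namely GNL3, NOP56, NOP58, NCL, WDR43, DKC1, PPAN and TSR1. Their median log2 fold change at 500 pM was -0.60, beside -0.67 for the other 36. At 100 pM in Molm-14 cells the medians were -0.26 and -0.24. Another coding gene overlaps 18 of the 44 genes, on the other strand for 15 of them and on the same strand for GRWD1, NOP2, PPAN and UTP4, and the use of strand in counting is not stated, so such pairs may share reads.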

How the data were processed

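RNA was sequenced from 12 libraries of HL-60 and Molm-14 cells, in 6 groups of 2 taken from the sample labels. The authors trimmed reads with Trim Galore (0.60), mapped them to hg38 with STAR (2.7) and estimated expected counts and TPM per gene with RSEM (1.31) on GENCODE 31. Nothing had been scaled in the deposited expected counts, whereas the deposited TPM values are scaled by length and depth. FPKM was not used, and 0 columns were left unmapped.

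Identifiers were named with GENCODE 44. Protein-coding genes of level 1 or 2 were kept, expected counts were rounded, and edgeR 4.0.16 (R 4.3.3; filterByExpr, TMM, glmQLFit with 1 mean per group over all 12 libraries, glmQLFTest, two-sided) tested 13422 genes with Benjamini-Hochberg adjustment. SE is the size of the log2 fold change over the square root of F. Intervals are 95% by a normal approximation from that SE, which makes them somewhat narrower than the test itself would. The fit was tested on simulated data. Libraries held 21177424 to 63927449 counts, and the 44 genes at least 544 each.

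The members and lists were chosen with earlier results of these data known. Values in every library are given for the snoRNP core, NPM1, NCL, MYC and the 4 highest and 4 lowest members of each comparison with a control and of the controls of both lines. The alternatives were DESeq2 1.42.0, limma-voom 3.58.1 as the study used, RLE factors, total counts alone, other filters, all gene types, only the groups compared, thinned libraries, a replicate block, counts summed with readthrough transcripts and pseudogenes, limma on log2(TPM + 1), a fold change over 1.5, and leaving out each library. Adding the counts of coding genes that overlap members on the same strand was chosen after seeing the data. Where a group kept 1 library, its spread was taken from the other groups.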

Additional observations from a re-analysis of the deposited data

Results flagged for a closer look

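The difference between the change of HL-60 cells at 112.7 pM and that of Molm-14 cells at 100 pM passed edgeR's quasi-likelihood test for 18 of the 44 genes, with the log2 fold change lower in HL-60 cells for 9, beside 21.0% of all genes, and higher for 9, beside 16.7%. Such counts are close to the shares of all genes and are no trait of the 44 genes. The lines also differ in medium, in serum, slightly in dose and in the dose relative to their IC50, which cannot be told apart here. The log2 fold change was lower in HL-60 cells for GAR1 (-0.44), NOC3L (-0.30), DDX21 (-0.24), DDX18 (-0.23), NOP2 (-0.22), NPM1 (-0.22), NIP7 (-0.20), PPAN (-0.18) and WDR75 (-0.15). It was higher in HL-60 cells for UTP4 (0.14), MRTO4 (0.14), NOP58 (0.15), TSR1 (0.16), NOP14 (0.17), NOP10 (0.19), FBL (0.21), NHP2 (0.28) and NOC4L (0.36). With the coding genes that overlap them on the same strand added, NOP2 (-0.13, adjusted p = 0.067) and UTP4 (0.12, adjusted p = 0.0601) no longer passed. PPAN no longer passed when reads of the readthrough transcript PPAN-P2RY11 were added (-0.12, adjusted p = 0.113).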

How the results depend on the processing

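Of single-gene values under the alternatives, 8473 kept their side of the threshold, 269 no longer passed, 54 newly passed and 4 reversed. A reversal is a change of sign where the main fit or the alternative passed. Changes of sign where neither passed are among the 8473. NOP58 reversed between the controls with limma on log2(TPM + 1) (0.10, against -0.09). Adding the coding genes that overlap members on the same strand, chosen after seeing the data, reversed PPAN at 100 pM in Molm-14 cells (0.034) and between the controls (-0.38) and UTP4 between the controls (-0.0018, adjusted p = 0.96). Of the 37 falls at 112.7 pM in HL-60 cells, DESeq2 and total counts alone left 28 each and RLE factors 29. The 44 falls at 500 pM in HL-60 cells held under every alternative but that of fold size, and without any one library. Asking for a fold change over 1.5 as well left 24 falls at 500 pM and 1 at 112.7 pM in HL-60 cells, 3 between these doses, and 0 in each Molm-14 comparison. Between the controls of HL-60 and Molm-14 cells it left 15 higher and 3 lower genes, and at the near-equal doses 0 in each direction. The medians of the 44 genes ran from -0.66 to -0.45 at 500 pM and from -0.26 to -0.16 at 112.7 pM in HL-60 cells, and from -0.27 to -0.21 at 100 pM in Molm-14 cells. With total counts alone all genes had a median of 0.18 at 500 pM.

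At 11.1 pM in Molm-14 cells the 1 fall (BOP1) became 2 without a filter on low counts and 0 with limma on log2(TPM + 1), with thinned libraries or with total counts alone, and ran from 0 to 1 when single libraries were left out. At 100 pM in Molm-14 cells 1 gene, NOP2, rose with a mean of at least 50 counts, with no filter, with only the groups compared, with thinned libraries or with total counts alone, and 0 to 1 rose without single libraries, as they did between the Molm-14 doses. At the near-equal doses the 9 genes lower in HL-60 cells became 5 with DESeq2 and 4 with limma on log2(TPM + 1), and the 9 higher became 14 with RLE factors, 3 with limma on log2(TPM + 1) and 4 to 9 without single libraries. The cause of these differences was not tested.

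Neither labels nor methods pair the replicate numbers shared by the groups. Deviations of same-numbered libraries in log2 CPM correlated between -0.07 and 0.07, which cannot show that the samples were unpaired. In HL-60 cells library 2 held more counts than library 1 in each group, a difference that CPM removes. The totals were 63927449 against 40518695 in controls, 31315658 against 21632970 at 112.7 pM and 32012199 against 21177424 at 500 pM. With the replicate number as a block, 0 genes fell at 11.1 pM in Molm-14 cells, 42 at 100 pM, and 37 and 44 at the doses of HL-60 cells.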
